A study of Schizosaccharomyces pombe with 24 samples.

Results

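The hexose transporter family of the fission yeast Schizosaccharomyces pombe has 8 genes, ght1 to ght8, and all 8 were measured, each by 1 probe set with 1 gene symbol, among 4981 features tested. The members were taken by their gene symbols. Transcript levels come from 24 Affymetrix Yeast Genome 2.0 arrays, 1 per RNA sample from asynchronous cultures, given as log2 intensities. The strains lack histone acetyltransferases (HATs), the enzymes that add acetyl groups to histones. Gcn5 and Elp3 belong to the GNAT family and Mst2 and Mst1 to the MYST family.

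There were 9 groups, all labelled as grown at 30 °C. Wild type (h+, also can1-1), Δgcn5 (h-, kanMX in place of gcn5, also his3-D1), Δmst2 (h+, mst2 replaced by ura4+), mst1-ts (h+, mst1 replaced by kanMX6 and an nmt-driven mst1 allele placed at leu1), Δgcn5 Δmst2 (h+, KanMX6 in place of gcn5, ura4+ in place of mst2, his3-D1), Δelp3 (h+, KanMX6 in place of elp3) and Δmst2 Δelp3 (h+, with ura4+ and KanMX6) had 3 arrays each. Δgcn5 Δelp3 (h+, KanMX4 and KanMX6) had 2 arrays and the triple mutant Δgcn5 Δelp3 Δmst2 (h+, KanMX4, KanMX6 and ura4+) had 1, whose spread was taken to be that of the other groups. All groups share ura4-D18 and an ade6 allele, and all but mst1-ts carry leu1-32. These genotypes follow the strain list of the study, whose methods call the replicates independent isolates. Whether all arrays of a group came from 1 strain construction is not stated. The ura4 reading of wild-type replicate 2, given below, goes against the listed ura4-D18. The essential gene mst1 cannot be deleted outright, and 30 °C is a semi-permissive temperature for the allele used, so mst1-ts is a partial loss. The arrays carry 2 experiment dates. Wild type, Δgcn5, Δmst2 and mst1-ts all fall on the first and every strain lacking elp3 on the second. The Δgcn5 Δmst2 group has 2 arrays on the first date and 1 on the second. For any change between wild type and a strain lacking elp3, the strain and the date therefore cannot be told apart, except through the single Δgcn5 Δmst2 array of the second date.

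Hexose transporters are membrane proteins of the major facilitator superfamily that let glucose, fructose and related sugars cross the plasma membrane. Fission yeast lives by fermenting glucose, and it adjusts the set of transporters to the sugar supply through the cAMP pathway, the AMP-activated kinase Ssp2 and the repressor Scr1. Ght5 is the high-affinity glucose transporter that cells need when glucose is scarce. Ght1, Ght2 and Ght6 carry glucose as well, with Ght6 preferring fructose, and Ght3 carries gluconate. Ght4 is assigned to hexose transport by its relatives, as are the less studied Ght7 and Ght8.

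The deleted genes were low in the strains named for them, gcn5 at 5.15 to 5.72, mst2 at 5.14 to 5.28 and elp3 at 5.93 to 6.98, except that 2 libraries went against their labels. In the library labelled Δgcn5 replicate 2, gcn5 read 10.93, inside the wild-type range of 10.58 to 11.05, and mst2 read 5.21. In the library labelled Δmst2 replicate 2, mst2 read 10.01 and gcn5 read 5.43. In the first of these libraries ura4 read 13.30 and his3 13.69, near the 13.08 and 13.07 of Δmst2 replicate 1. In the second they read 7.18 and 5.90, near the 7.39 and 6.18 of Δgcn5 replicate 1. On these genes each library read like the other label, and an exchange of the 2 libraries was not tested. The probe set of mst1 read 11.38 to 11.94 in mst1-ts and 10.09 to 10.58 in wild type, so it does not check the allele. For ura4, wild-type replicate 2 read 12.85 where replicates 1 and 3 read 7.40 and 7.45. Δgcn5 Δmst2, which carries ura4+, read 12.64 to 12.87, so this wild-type array goes against the listed ura4-D18. Its mst2 read 8.73, against 9.89 and 10.13 in replicates 1 and 3. All libraries were kept as labelled in the main comparisons, and results are also given without the 2 that went against their labels, called the doubted libraries, where that changes them. As 1 error is pooled over all groups, members that split within the Δgcn5 and Δmst2 labels have wide errors in every comparison with all arrays.

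The 8 transcripts differed widely in how far they moved. Over the 24 arrays ght3 spanned 5.47 to 12.70, a range of 7.23 log2 units, and ght1 spanned 7.27 to 14.49, a range of 7.22. Each range was wider than that of 99.8% of all features. The ranges of ght4 (5.11) and ght5 (3.55) exceeded those of 98.5% and 95.7% of features. By contrast ght8 moved over 1.18 units and ght2 over 1.54, wider than 41.1% and 62.4% of features. The probe sets of ght3, ght6, ght7 and ght1 were dim, with averages over all arrays above those of only 8.2%, 4.6%, 2.4% and 21.7% of features, so small differences in ght6 and ght7 rest on weak signal. In wild type ght3 (5.47 to 6.30) and ght7 (5.84 to 5.93) read within the 5.14 to 6.98 that probe sets of deleted genes gave in their own deletion strains, and ght6 (6.69 to 7.09) read partly within it. Their starting level is therefore not shown to be above background, and their rises are given as log2 differences in signal, with no fold.

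**Figure D1:**
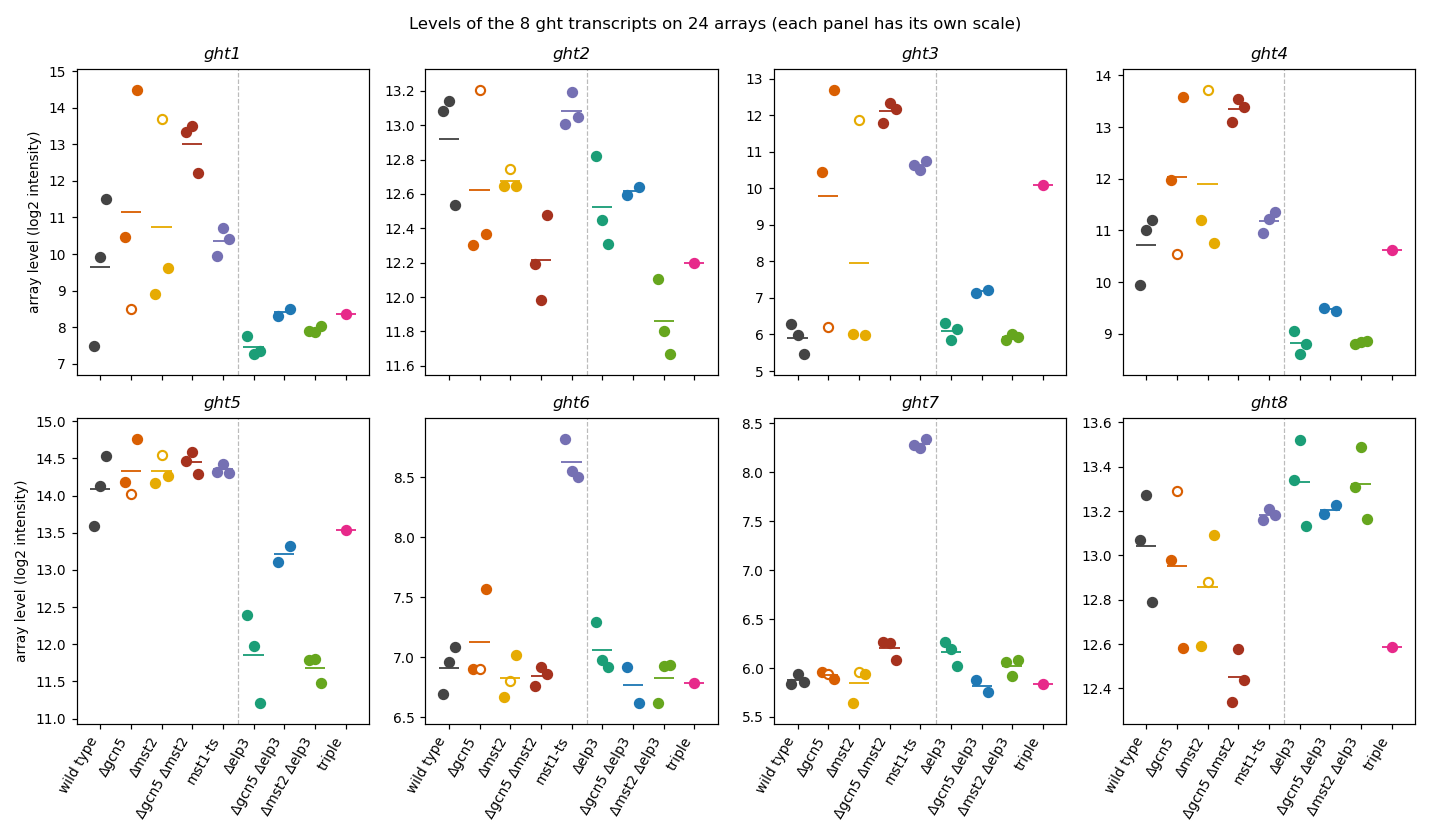
Level of each ght transcript (log2 intensity) on each of the 24 arrays, by strain group, with a bar at the group mean and a scale of its own for each panel. Open circles are the doubted libraries and the dashed line sets apart the groups lacking elp3; ght5 was below 13.59 in every array right of it, ght3 reached 12.70 in strains lacking gcn5, and ght6 and ght7 stood apart in mst1-ts only.

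The largest and steadiest loss in the family was that of ght5 in Δelp3 and Δmst2 Δelp3. In wild type ght5 was at 13.59, 14.13 and 14.53, and in Δelp3 at 12.39, 11.98 and 11.21, with no overlap. It fell by 2.22 ± 0.26 on the log2 scale (standard error, limma adjusted p = 1.60e-05), which is 4.66-fold. In Δmst2 Δelp3 it was at 11.78, 11.80 and 11.48 and fell by 2.40 ± 0.26, or 5.26-fold (limma adjusted p = 8.47e-06). Both decreases were past the threshold with the date as a covariate, where ght5 fell by 1.99 in Δelp3 (adjusted p = 0.0341) and by 2.16 in Δmst2 Δelp3 (adjusted p = 0.0229), although that fit rests on the 1 Δgcn5 Δmst2 array of the second date, in which ght5 was at 14.29. Taking all strains by their labels, ght5 ran from 11.21 to 13.54 in the 9 arrays lacking elp3 and from 13.59 to 14.76 in the 15 others, a separation in this direction that 1.35% of all features showed.

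The transcript of ght4 followed the same course in these strains. Wild-type arrays gave 9.95, 11.01 and 11.19, against 9.06, 8.61 and 8.79 in Δelp3 and 8.79, 8.84 and 8.86 in Δmst2 Δelp3. All 6 values lay below the lowest wild-type array. It fell by 1.90 ± 0.64 in Δelp3 (limma adjusted p = 0.0419) and it fell by 1.89 ± 0.64 in Δmst2 Δelp3 (adjusted p = 0.0424), or 3.73-fold and 3.70-fold. Neither call was secure with all arrays. It was lost in Δelp3 without wild-type replicate 2 or 3 or any 1 Δelp3 array (adjusted p 0.0787 to 0.125) and in Δmst2 Δelp3 without wild-type replicate 2 or 3 or any 1 array of the mutant (adjusted p 0.0878 to 0.125). It was also lost with the date as a covariate (adjusted p = 0.444 and 0.414). With the doubted libraries left out the same decreases had standard errors of 0.33 and adjusted p of 0.000793 and 0.000812.

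In Δelp3, 1 of the 8 members rose and 2 fell, where 13% of all features rose, 8.49% fell and 21.5% changed in all. The median change over the members was -0.12, against 0.02 over all features. Besides ght5 and ght4, ght7 rose by 0.29 ± 0.10 (limma adjusted p = 0.0412), from 5.84, 5.93 and 5.86 in wild type to 6.27, 6.20 and 6.02. That small difference in a weak signal turned to -0.08 (adjusted p = 0.556) after quantile normalization of the deposited values. It was also lost without any 1 wild-type array or without Δelp3 replicate 1 or 2 (adjusted p 0.0631 to 0.16). Only ght5 and ght4 passed the 3.25-fold threshold of the methods, which 0.903% of features passed. The values of ght1 in Δelp3, at 7.76, 7.27 and 7.35, overlapped the wild-type range of 7.50 to 11.50 at its lower end, and the difference of -2.17 ± 1.24 did not pass (adjusted p = 0.223). For ght3 the difference was 0.19 ± 1.30, with a 95% interval of -2.54 to 2.92, and for ght8 it was 0.29 ± 0.17 with an interval of -0.06 to 0.64.

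Besides ght5 and ght4, ght2 fell in Δmst2 Δelp3. In that strain ght2 was at 12.11, 11.80 and 11.67, below the 12.54 to 13.14 of wild type, and it fell by 1.06 ± 0.21 (limma adjusted p = 0.00227), or 2.08-fold. In Δelp3 alone ght2 was at 12.82, 12.45 and 12.31, a difference from wild type of -0.39 ± 0.21 (adjusted p = 0.196). Setting Δmst2 Δelp3 directly against Δelp3, which shares its date, ght2 differed by -0.67 ± 0.21 and did not pass (adjusted p = 0.322). None of the 8 members passed in that comparison by limma (0.763% of features did), with 1 member at an unadjusted p under 0.05. Against wild type, 3 of 8 members fell in Δmst2 Δelp3 and none rose, where 9.19% of features fell, 12.7% rose and 21.9% changed in all. Of the members, ght5 and ght4 passed the fold threshold, as 1.08% of features did, and the median change was -0.57 against 0.02 over all features. The decrease of ght2 was lost with the date as a covariate, where it fell by 1.45 (adjusted p = 0.0547).

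When gcn5 was deleted beside elp3, ght5 stood between wild type and Δelp3. The 2 arrays of Δgcn5 Δelp3 gave 13.11 and 13.32, below the lowest wild-type value and above the highest Δelp3 value of 12.39. Relative to wild type it fell by 0.87 ± 0.29 (limma adjusted p = 0.0392), and relative to Δelp3 on the same date it rose by 1.36 ± 0.29, or 2.56-fold (adjusted p = 0.0225). Against Δmst2 Δelp3 it rose by 1.53 ± 0.29, or 2.89-fold (adjusted p = 0.00584). It was the single member called in each of these comparisons, in which 21.5%, 1.1% and 2.67% of features changed. In the first, where it fell, 9.01% of features fell, and in the others, where it rose, 0.502% and 1.49% rose. It did not pass the fold threshold in any of them, which 1.24%, 0.281% and 0.562% of features passed. The call against wild type was lost without wild-type replicate 2 or 3 or either array of the mutant (adjusted p 0.0818 to 0.238), that against Δelp3 without Δelp3 replicate 2 or 3 or either array of the mutant (0.0522 to 0.374), and that against Δmst2 Δelp3 without either array of Δgcn5 Δelp3 (0.0604 and 0.107). The call against wild type was also lost with the date as a covariate (adjusted p = 0.581), after quantile normalization (0.058), with a replicate block (0.0523) and with the groups of the comparison alone (0.089). That against Δelp3 was also lost with a replicate block (0.0536) and with the groups of the comparison alone (0.0691).

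Within Δgcn5 Δelp3 the members moved apart. The level of ght3 was 7.14 and 7.21, above the 5.47 to 6.30 of wild type, while ght4 was at 9.50 and 9.44, below the lowest wild-type array. With all arrays ght3 differed by 1.26 ± 1.45 (limma adjusted p = 0.57) and ght4 by -1.25 ± 0.72 (adjusted p = 0.228). When the doubted libraries were left out, ght3 rose by 1.26 ± 0.41 (adjusted p = 0.0324) while ght4 fell by 1.25 ± 0.37 (adjusted p = 0.0208) and ght5 fell by 0.87 ± 0.28 (adjusted p = 0.0330), so that 3 of 8 members changed where 27.3% of features did. Leaving out the ura4-positive wild-type library as well took all 3 calls away. Among members of this family, Δgcn5 Δelp3 was 1 of 4 strains in which some rose and others fell, the others being Δelp3, Δgcn5 Δmst2 and the triple mutant. The directions were opposite with all arrays in Δelp3 and Δgcn5 Δmst2, and only without the doubted libraries in the other pair. In Δelp3 this rests on ght7 alone as the member that rose, by 0.29 in a weak signal, and by -0.08 after quantile normalization. In the triple mutant, a single array, it rests on ght2 alone as the member that fell. That call too was lost with the ura4-positive wild-type library also left out.

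The deletion of both gcn5 and mst2 gave the largest increases. In Δgcn5 Δmst2 the gluconate transporter ght3 was at 11.80, 12.34 and 12.18, against 6.30, 5.97 and 5.47 in wild type. It rose by 6.19 ± 1.30 on the log2 scale (limma adjusted p = 0.00260). The array of the second date, at 12.18, lay between those of the first. For ght4 the values were 13.10, 13.55 and 13.40, all above the wild-type maximum of 11.19, and it rose by 2.63 ± 0.64, or 6.20-fold (adjusted p = 0.00659). For ght1 they were 13.33, 13.51 and 12.21, all above the highest wild-type array at 11.50. The wild-type arrays of ght1 spread from 7.50 to 11.50, and the difference of 3.38 ± 1.24 did not pass (adjusted p = 0.0553). Leaving out the doubted libraries, ght1 rose by 3.38 ± 0.86, or 10.4-fold (adjusted p = 0.00728), and it also passed without wild-type replicate 3 alone (4.31, adjusted p = 0.0276).

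The members ght2 and ght8 went the other way in Δgcn5 Δmst2. Levels of ght8 were 12.34, 12.58 and 12.44, below the 12.79 to 13.27 of wild type, and ght8 fell by 0.59 ± 0.17 (limma adjusted p = 0.0160). Levels of ght2 were 12.19, 11.98 and 12.48, below 12.54, the lowest wild-type array, and ght2 fell by 0.70 ± 0.21 (adjusted p = 0.0226). These are changes of 1.51-fold and 1.63-fold, under the 3.25-fold threshold that ght3 and ght4 passed, as 2.01% of features did. A small rise of ght7 by 0.32 ± 0.10 (adjusted p = 0.0204) made 5 changed members, 3 risen and 2 fallen, where 13.6% of features rose, 11.3% fell and 24.9% changed in all, and 6 without the doubted libraries, where 30.3% did. The calls of ght2, ght7 and ght8 each ended without wild-type replicate 1 or Δgcn5 Δmst2 replicate 1 (adjusted p 0.0513 to 0.0882), those of ght2 and ght8 also without wild-type replicate 2 (0.0887 and 0.0761), and those of ght2 and ght7 also without Δgcn5 Δmst2 replicate 2 (0.097 and 0.0762). With the 2 arrays of the first date alone the changes had like sizes, at 6.16 for ght3 and 2.61 for ght4, and 0 of the 8 members passed by limma (smallest adjusted p 0.0527).

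**Figure D2:**
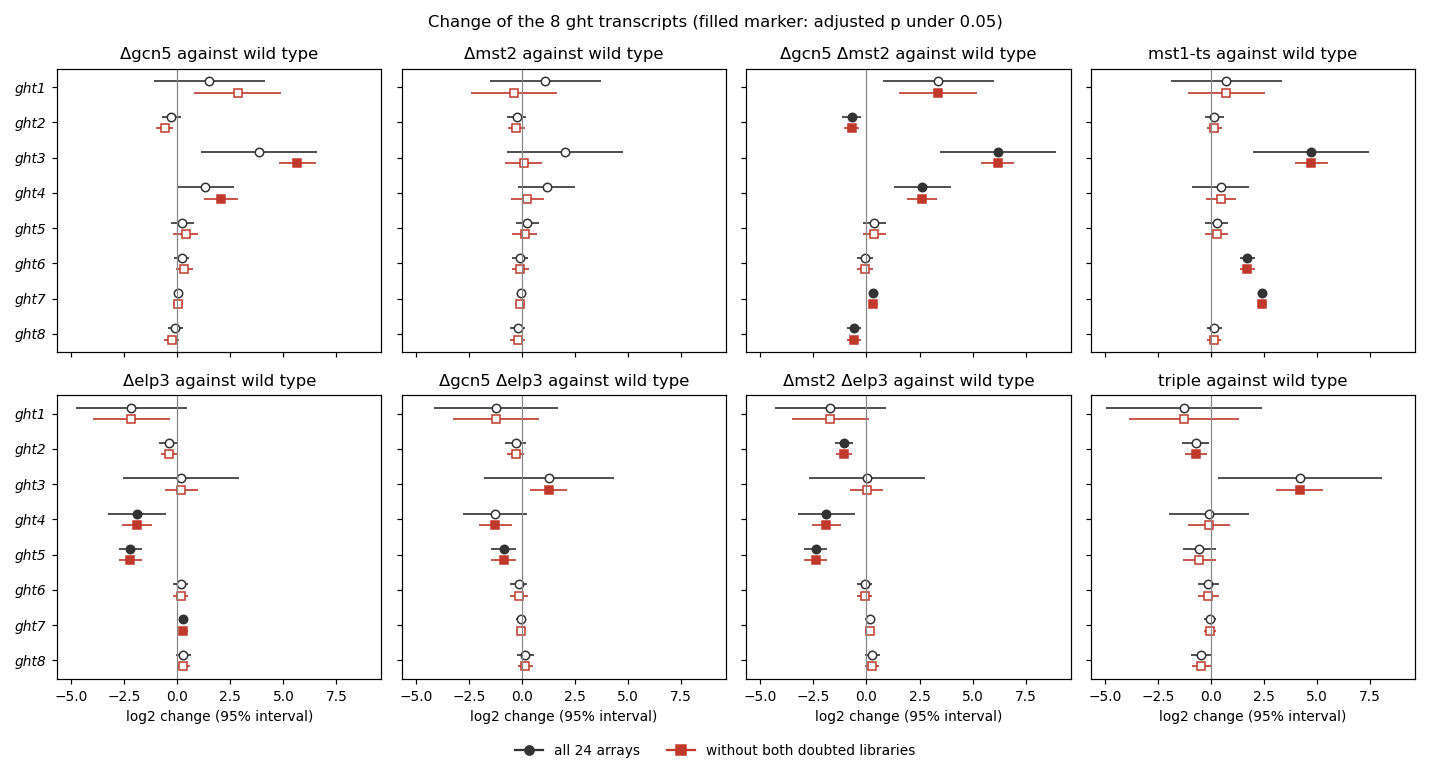
Log2 change of each ght transcript against wild type with its 95% interval, 1 panel per mutant, with all 24 arrays (circles) and without the doubted libraries (squares). Filled markers have an adjusted p under 0.05; ght3 rose by 6.19 in Δgcn5 Δmst2 and by 4.72 in mst1-ts, and ght5 fell by 2.22 in Δelp3 and by 2.40 in Δmst2 Δelp3.

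In Δgcn5 the calls turned on the doubted libraries, whereas in Δmst2 no member was called with them or without them. The arrays labelled Δgcn5 gave ght3 at 10.44, 6.21 and 12.70, and those labelled Δmst2 gave 6.01, 11.87 and 5.99. In each set replicate 2, the doubted library, stood on the side of the other label. With all arrays no member passed by limma in Δgcn5, where 0.12% of features did and 0.1% also passed the fold threshold, and 1 member, ght3, had an unadjusted p under 0.05 (3.87 ± 1.30, adjusted p = 0.593). Without the doubted libraries ght3 rose by 5.65 ± 0.41 (adjusted p = 7.96e-08), and ght4 rose by 2.06 ± 0.37, or 4.17-fold (adjusted p = 0.00268), where 6.08% of features changed. Without Δgcn5 replicate 2 alone ght3 rose by 5.65 with an adjusted p of 0.0133. The level of ght4 in the remaining Δgcn5 arrays was 11.97 and 13.58, above all wild-type arrays. The 2 arrays differed from each other most in ght1, at 10.45 and 14.49, and the difference of ght1 from wild type was 2.84 ± 0.96 (adjusted p = 0.1).

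No member passed in Δmst2 with all arrays (0.161% of features did, 0.0803% past the fold threshold), nor at an unadjusted p under 0.05. Without the doubted libraries none passed either, where 0.582% of features did. The difference of ght3 was then 0.09 ± 0.41 and that of ght5 was 0.13 ± 0.28. The Δmst2 arrays of replicates 1 and 3 gave ght3 at 6.01 and 5.99, inside the wild-type range, ght4 at 11.19 and 10.76, and ght5 at 14.17 and 14.26. For ght2 they gave 12.65 and 12.64, also inside it.

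Mating type moved with ght3 in part of these strains. The Δgcn5 strain is listed as h- and wild type as h+. Averaged over 6 genes specific to M cells, the mating-type class that h- strains belong to, the log2 level was 7.64 to 7.86 in wild type and 11.38 and 11.94 in Δgcn5 replicates 1 and 3. In the doubted libraries it was 7.74 under the Δgcn5 label and 11.03 under the Δmst2 label. Without the doubted libraries 6 of 6 of these genes rose in Δgcn5, where 3.47% of features rose and 6.08% changed. In Δgcn5 Δmst2, which is h+, the same average was 8.13 to 8.35, while ght3 was 11.80 to 12.34. Of these genes 1 of 6 had risen, where 13.6% of features rose, and 2 of 6 without the doubted libraries, where 16.5% rose. There 4 of 4 genes specific to P cells rose, where 13.6% of features did, with an average of 12.05 to 12.46 against 8.34 to 8.66 in wild type. In mst1-ts the P-cell genes also rose (4 of 4, average 10.35 to 10.43), where 13.7% of features did. The M-cell average there was 8.43 to 8.76, with 1 of 6 having risen, and 5 of 6 without the doubted libraries, where 16.2% of features rose. No marker of either class was at 0, as these are intensities. The part of mating type, or of his3-D1, in the ght3 and ght4 changes of Δgcn5 was not tested.

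The triple mutant had a single array. Its ght3 was at 10.10, far above wild type and above the 7.14 and 7.21 of Δgcn5 Δelp3. Its ght5 was at 13.54, just below the lowest wild-type array at 13.59, and its ght4 at 10.62, inside the wild-type range. By limma none of the 8 members passed against wild type with all arrays, where 6.36% of features rose, 5.4% fell and 11.8% changed in all (2.01% past the fold threshold), and 2 members had an unadjusted p under 0.05. These were ght3 (4.18 ± 1.84, adjusted p = 0.159) and ght2 (-0.72 ± 0.30, adjusted p = 0.139). Once the doubted libraries were left out, ght3 rose by 4.18 ± 0.52 (adjusted p = 5.34e-05), while ght2 fell by 0.72 ± 0.24 (adjusted p = 0.0497), where 16.5% of features changed. Set against Δgcn5 Δelp3 on the same date, a comparison added after the values were seen, ght3 in the triple mutant was higher by 2.92 ± 1.95 (adjusted p = 0.523) with all arrays and rose by 2.92 ± 0.55 (adjusted p = 0.00481) without the doubted libraries, where 2.77% and 5.06% of features changed. In the triple mutant the averages of the M-cell and P-cell genes were 10.14 and 10.80, both above every wild-type array. This strain is listed as h+. Its M-cell average was above that of every other array listed as h+ except the doubted library labelled Δmst2. The part of mating type in its ght3 level was not tested.

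Whether pairs of deletions acted beyond the sum of the single changes was tested by interaction terms. With all arrays no member passed by limma for gcn5 with mst2, gcn5 with elp3 or mst2 with elp3, where 1.39%, 0.341% and 0.381% of features did, with 1, 2 and 0 members at an unadjusted p under 0.05. For gcn5 with elp3 the ght3 term was -2.80 ± 1.95, with an interval of -6.90 to 1.30. With the doubted libraries left out, the ght3 term for gcn5 with elp3 was -4.58 ± 0.58 (adjusted p = 0.000198), and it was the 1 member that passed, where 1.14% of features did. In other words ght3 rose by 5.65 in Δgcn5 and by 1.26 in Δgcn5 Δelp3. The terms for ght5 in the same pair were 1.12 ± 0.39 (adjusted p = 0.718) with all arrays and 0.97 ± 0.40 (adjusted p = 0.503) without the doubted libraries. The strains compared in that pair differ in date and, for Δgcn5, in mating type and his3-D1, and these cannot be told apart from the deletions.

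The mst1-ts strain changed a different part of the family. In it ght7 was at 8.28, 8.24 and 8.34, against 5.84 to 5.93 in wild type, and rose by 2.41 ± 0.10 (limma adjusted p = 1.96e-12). Over the other 21 arrays ght7 never exceeded 6.27. The fructose-preferring ght6 was at 8.82, 8.55 and 8.51, against 6.69 to 7.09, and rose by 1.72 ± 0.17 (adjusted p = 6.59e-07). In mst1-ts ght3 rose too, to 10.65, 10.50 and 10.76, by 4.72 ± 1.30 (adjusted p = 0.00888). The remaining 5 members differed by 0.14 to 0.72 and did not pass. Among them ght5 was at 14.32, 14.43 and 14.30, inside the wild-type range, with an interval of -0.27 to 0.81. All 3 rose, where 13.7% of features rose, 21.8% fell and 35.6% changed in all, and the median change was 0.59 against -0.07 over all features. Each of the 3 also passed the 3.25-fold threshold, which 3.03% of features did. For ght6 the change was close to that threshold of 1.70 on the log2 scale, and it fell short of it without wild-type replicate 1 (1.61) or mst1-ts replicate 1 (1.62) and after quantile normalization (1.61). The 3 calls at the adjusted p held without each array in turn and without the doubted libraries, and mst1-ts shares its date with wild type. The 3 members are dim, and a filter that left out the 25% of features with the lowest mean removed all of them.

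**Figure D3:**
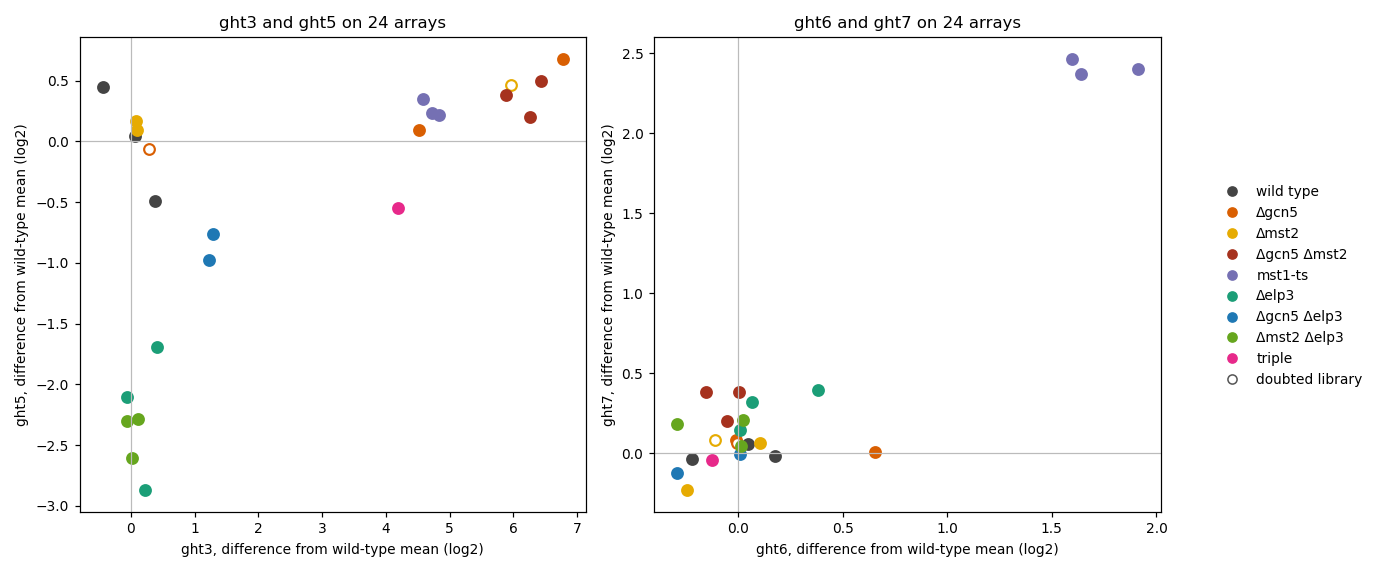
Difference of each array from the wild-type mean (log2) for ght5 against ght3 (left) and ght7 against ght6 (right), coloured by strain, with the doubted libraries as open circles. The highest array for ght3 was 6.78 units above the wild-type mean, the lowest for ght5 was 2.87 units below it, and the mst1-ts arrays stood alone for ght6 and ght7.

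Set side by side, the members followed 3 courses. The first was that of ght1, ght4 and ght5. By group means with all arrays as labelled, these were lowest where elp3 was missing and highest in Δgcn5 Δmst2. The Δmst2 and Δgcn5 means in these orders include the doubted libraries. Without those, ght4 differed from wild type by 0.26 ± 0.37 in Δmst2 and by 2.06 ± 0.37 in Δgcn5. In order of group mean ght4 went from Δelp3 (8.82) and Δmst2 Δelp3 (8.83), whose ranges overlapped, through Δgcn5 Δelp3 (9.47), the triple mutant (10.62), wild type (10.72), mst1-ts (11.18), Δmst2 (11.89) and Δgcn5 (12.03) to Δgcn5 Δmst2 (13.35), with each group from wild type on overlapping the one before it. The order of ght5 ran from Δmst2 Δelp3 (11.69) and Δelp3 (11.86), which overlapped, to Δgcn5 Δelp3 (13.22), the triple mutant (13.54) and wild type (14.08), each apart from the one before, and the other groups (14.32 to 14.45) overlapped wild type. For ght1 the means ran from 7.46 in Δelp3 to 13.01 in Δgcn5 Δmst2, and every group from wild type upward overlapped its neighbour in the order.

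The second course was that of ght3, which was lowest in wild type (5.91), Δmst2 Δelp3 (5.94) and Δelp3 (6.11), groups that overlapped. Upward from there came Δgcn5 Δelp3 (7.18), Δmst2 (7.96), Δgcn5 (9.78), the triple mutant (10.10), mst1-ts (10.63) and Δgcn5 Δmst2 (12.11). The last 2 each lay above the whole range of the group before it. The arrays labelled Δgcn5 spanned 6.21 to 12.70 and those labelled Δmst2 5.99 to 11.87, each with a doubted library. Without the doubted libraries ght3 differed from wild type by 0.09 ± 0.41 in Δmst2 and by 5.65 ± 0.41 in Δgcn5. As the difference was 1.26 in Δgcn5 Δelp3 and 4.72 in mst1-ts, both labels then change place in the order. The third was that of ght6 and ght7, which separated mst1-ts (8.63 and 8.29) from all other groups, whose means ran from 6.77 to 7.12 and from 5.81 to 6.20. Apart from these, ght8 was lowest in Δgcn5 Δmst2 (12.45) and the triple mutant (12.59) and highest in Δelp3 (13.33) and Δmst2 Δelp3 (13.32), groups in which ght1 and ght4 were lowest. The lowest ght2 group was Δmst2 Δelp3 (11.86) and the highest mst1-ts (13.08).

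Correlations over the 24 arrays, which share strains, dates and the spread between libraries, show this grouping only in part. Pearson's r was 0.945 between ght1 and ght4, 0.846 between ght4 and ght5 and 0.755 between ght1 and ght5. For ght3 it was 0.828 with ght4, 0.801 with ght1 and 0.612 with ght5, so these values did not set ght3 apart from ght1 and ght4. Between ght6 and ght7 it was 0.936. It was -0.694 between ght1 and ght8 and -0.773 between ght4 and ght8. Between ght1 and ght2 it was -0.02. Libraries of 1 group also varied together, as deviations from the group means had r = 0.935 for ght1 with ght4 and 0.869 without the doubted libraries. For ght3 with ght4 these values were 0.911 and 0.544, and for ght4 with ght5 they were 0.573 and 0.604. For ght6 with ght7 they were 0.206 and 0.263, and Spearman's rho over the 24 arrays was 0.492, with the mst1-ts arrays apart from all others in both genes. In wild type the array lowest in ght1 (7.50) was also lowest in ght4 (9.95) and ght5 (13.59), and the array highest in ght1 (11.50) was highest in ght4 (11.19) and ght5 (14.53) and lowest in ght2 (12.54) and ght8 (12.79).

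**Figure D4:**
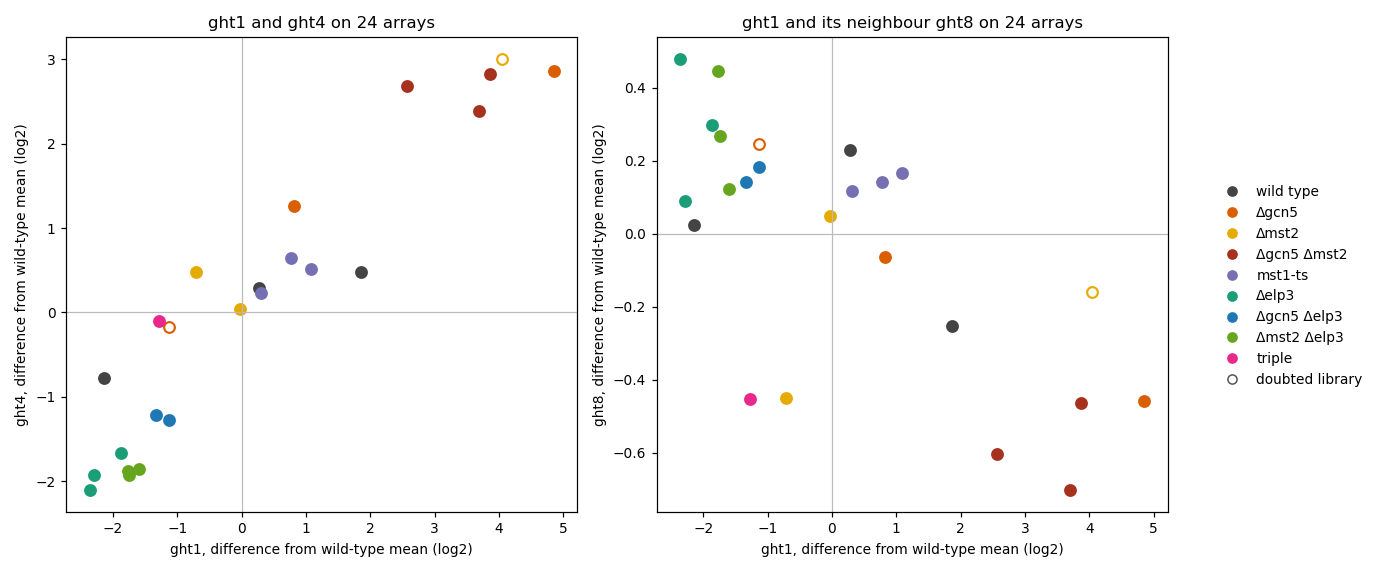
Difference of each array from the wild-type mean (log2) for ght4 against ght1 (left) and ght8 against ght1 (right), coloured by strain, with the doubted libraries as open circles. Across the 24 arrays ght4 rose with ght1 (r = 0.945) while ght8, the next gene on the chromosome, went the other way (r = -0.694) over a much smaller range of 1.18 units.

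The opposite pair ght1 and ght8 are next to each other on chromosome III, with 0 protein-coding genes between them in the RefSeq gene order of assembly ASM294v3. The cluster on that chromosome holds 4 members, since 4 protein-coding genes lie between ght8 and ght5 and 2 between ght5 and ght6. Thus ght6 and ght5, which moved in different strains, are close neighbours, while ght6 and ght7, which moved together, are on different chromosomes. The gene after ght5 is dga1, which makes the storage lipid triacylglycerol. Among features with 1 gene symbol, dga1 was also the most like ght5 over the arrays (r = 0.899). It fell by 0.38 ± 0.12 in Δelp3 (limma adjusted p = 0.0282) and by 0.58 ± 0.12 in Δmst2 Δelp3 (adjusted p = 0.00223), less than ght5.

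Members also lie toward chromosome ends. On chromosome I ght3 is the 28th protein-coding gene from the nearer end. On chromosome II ght7 is the 13th and ght4 the 46th, whereas ght2 is the 455th. Next but one to ght2, atg5 fell by 0.67 ± 0.13 in Δgcn5 Δmst2 (limma adjusted p = 0.00125), where ght2 fell by 0.70 ± 0.21. In Δgcn5 Δelp3, where ght2 did not pass, its neighbours vps25 and prp39 were called in opposite directions (-0.45 ± 0.13 and 0.57 ± 0.14). Beside ght4 lie mal1, which encodes a maltase, and frp1, a ferric reductase. In mst1-ts frp1 rose by 3.69 ± 0.67 (limma adjusted p = 0.000446), where ght4 differed by 0.46 ± 0.64, and in the triple mutant frp1 rose by 4.31 ± 0.95 (adjusted p = 0.00641), where ght4 differed by -0.10 ± 0.91. The other neighbour mal1 fell by 0.67 ± 0.20 in Δmst2 Δelp3 (adjusted p = 0.0244), where ght4 fell too. Near ght7, the transcription factor gene grt1 rose by 3.04 ± 0.35 in mst1-ts (adjusted p = 3.62e-06) and also in Δgcn5 Δelp3 by 2.81 ± 0.39 (adjusted p = 8.00e-05), where ght7 differed by -0.06 ± 0.11. It rose in Δelp3 as well, by 1.52 ± 0.35 (adjusted p = 0.00520), where ght7 rose by 0.29. Next but one to ght3, the siderophore transporter gene str3 rose by 3.48 ± 0.62 in mst1-ts (adjusted p = 0.000357) and by 7.18 ± 0.87 in the triple mutant (adjusted p = 5.18e-05).

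For each member the 3 named genes with the most similar values over the 24 arrays were found. The closest to ght3 were spk1, the MAP kinase of the pheromone response (r = 0.971), mug14, named for its rise in meiosis (0.960), and the protein kinase gene ppk33 (0.947). In Δgcn5 Δmst2, spk1 rose by 4.76 ± 0.69 (limma adjusted p = 0.000103) and in mst1-ts by 3.17 ± 0.69 (adjusted p = 0.00174). The closest to ght7 were eno102, a second enolase gene (0.971), pcm2, a protein-repair methyltransferase gene (0.958), and the bZIP factor gene atf21 (0.949), and eno102, pcm2 and ght7 were those closest to ght6 (0.938, 0.946 and 0.936). In mst1-ts eno102 rose by 5.11 ± 0.27 (adjusted p = 8.47e-11) and pcm2 by 4.08 ± 0.16 (adjusted p = 1.14e-12). After ght4 and the phospholipase gene plb1 (0.928), coq6 of coenzyme Q synthesis was the closest to ght1 (0.918). After ght1, the closest to ght4 were the aminopeptidase gene ape4 (0.939) and oxr1 (0.925), which fell by 1.17 ± 0.25 in Δelp3 (adjusted p = 0.00371).

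For ght5 they were dga1, the GTPase gene gtr1 of amino acid signalling (0.885) and rst2 (0.885), a transcription factor that protein kinase A holds inactive in glucose. In Δelp3 rst2 fell by 0.83 ± 0.14 (limma adjusted p = 0.000676), and in mst1-ts it rose by 0.66 ± 0.14 (adjusted p = 0.00192). For ght8 they were the tRNA methyltransferase gene trm1 (0.902), ade9 (0.871) and ggt1 (0.870). The likeness was weakest for ght2, with the ubiquitin gene ubi1 (0.746), the membrane protein gene pmp3 (0.744) and the nuclear pore gene nup37 (0.715). Of these, ggt1, which encodes a gamma-glutamyltransferase, went the way of ght8, as it fell by 0.73 ± 0.18 in Δgcn5 Δmst2 (adjusted p = 0.00626), whereas in Δelp3 it rose by 0.63 ± 0.18 (adjusted p = 0.0157) and ght8 did not pass.

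Genes that act before and after hexose uptake were read from lists drawn from textbook knowledge, which hold no ght member. Of 13 genes of the glucose-sensing cAMP pathway, 2 rose and 2 fell in Δelp3 (21.5% of all features changed), with a median change of 0.06 against 0.02 over all features. Beside rst2, the phosphodiesterase gene cgs2 rose by 1.08 ± 0.24 (limma adjusted p = 0.00392) and the adenylate cyclase gene cyr1 rose by 0.95 ± 0.24 (adjusted p = 0.00785). In Δgcn5 Δmst2, where 24.9% of features changed, 3 of 13 rose and 1 fell, the latter being gpa2, the G protein alpha subunit, which fell by 1.55 ± 0.21 (adjusted p = 5.38e-05). In mst1-ts, where 35.6% of features changed, 2 rose and 1 fell. Of 9 genes of glucose repression and AMP-activated kinase, 1 fell in Δelp3, where 21.5% of features changed (the kinase subunit gene cbs2, which fell by 0.60 ± 0.14, adjusted p = 0.00538), and in mst1-ts, where 35.6% changed, 1 rose and 2 fell. The one that rose there encodes the repressor Scr1 (scr1 rose by 1.32 ± 0.35, adjusted p = 0.00657).

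Of the genes that glucose represses, or that serve other carbon sources, 14 of 19 listed were measured. In mst1-ts 6 of 14 rose and none fell, where 13.7% of features rose and 35.6% changed, and the median change was 0.75 against -0.07 over all features. Among them were mel1, an alpha-galactosidase gene (4.43 ± 0.18, limma adjusted p = 1.96e-12), fbp1, encoding the gluconeogenic enzyme fructose-1,6-bisphosphatase (4.32 ± 0.20, adjusted p = 1.79e-11), and the dihydroxyacetone kinase gene dak2 (5.02 ± 0.31, adjusted p = 7.59e-10). In Δgcn5 Δmst2 3 rose and 2 fell, where 24.9% of features changed, with fbp1 having risen by 3.67 ± 0.20 (adjusted p = 1.32e-09). In Δelp3 dak2 rose by 3.86 ± 0.31 (adjusted p = 2.53e-07) while the invertase gene inv1 fell by 2.57 ± 0.79 (adjusted p = 0.0277), and the other 12 did not pass, where 21.5% of features changed. In Δmst2 Δelp3 1 rose and 5 fell, where 21.9% of features changed, and the galactose gene gal7 fell by 3.62 ± 0.54 (adjusted p = 0.000195).

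Hexokinases and glycolytic enzymes take over after uptake. Of 12 genes measured of 16 listed for hexose phosphorylation and glycolysis, 0 changed in Δgcn5 Δmst2 by limma and 0 had an unadjusted p under 0.05, where 24.9% of features changed. In Δgcn5 Δelp3 0 of 12 changed by limma and 2 had an unadjusted p under 0.05, where 21.5% of features changed. In Δelp3 2 of 12 fell, where 8.49% of features fell and 21.5% changed in all. They were the hexokinase genes hxk1 (fell by 0.43 ± 0.12, adjusted p = 0.0212) and hxk2 (fell by 0.33 ± 0.11, adjusted p = 0.0329). In mst1-ts eno102 and hxk1 rose, where 13.7% of features rose and 35.6% changed in all. Of the 3 other sugar and polyol carriers, the inositol transporter gene itr2 fell by 0.59 ± 0.14 in Δelp3 (adjusted p = 0.00603). It also fell by 0.66 ± 0.15 in Δgcn5 Δelp3 (adjusted p = 0.00612). In these strains 8.49% and 9.01% of features fell. In Δgcn5 Δmst2 itr2 rose by 0.53 ± 0.14 (adjusted p = 0.0105). The sucrose carrier gene sut1 rose in Δgcn5 Δmst2 and mst1-ts, where 13.6% and 13.7% of features rose.

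Of 9 genes measured of 10 listed for the delivery of Ght5 to the membrane and its removal, among them subunits of the kinase complex TORC2 and ubiquitin ligases, 2 fell in Δelp3, where 21.5% of features changed, the TORC2 subunit genes sin1 (fell by 0.49 ± 0.11, limma adjusted p = 0.00395) and wat1 (fell by 0.41 ± 0.13, adjusted p = 0.0378). In Δgcn5 Δmst2 3 rose and 1 fell, where 24.9% changed, with the ubiquitin ligase gene pub2 having risen by 1.12 ± 0.21 (adjusted p = 0.00107). In mst1-ts 2 rose, where 35.6% changed, led by the ligase gene pub3 (0.83 ± 0.13, adjusted p = 0.000127). All 8 comparisons with wild type share its 3 arrays, so a wild-type array that stands off moves every one of them together.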

How the data were processed

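RNA of 24 samples was hybridised to Affymetrix Yeast Genome 2.0 arrays, 1 array per sample. Each deposited value is a log2 intensity of a probe set, made by the authors with RMA, which corrects background, quantile-normalizes the arrays and summarises probes. The version of RMA was not given in the sources used. RMA assumes like distributions on all arrays, so a shift of most genes would be removed. Values ran from 4.85 to 15.35 and array medians from 10.99 to 11.08. Of 5028 probe sets, 29 controls and 18 that were the dimmer one of a gene were left out, leaving 4981 features. Of all probe sets other than the controls, 2917 had 1 gene symbol, 20 had several and 2062 had none. Groups follow the labels. The 3 arrays titled mst2-ts are mst1-ts by their source and genotype labels.

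Group means of all 24 arrays were fitted together with limma 3.58.1 (R 4.3.3) by lmFit and eBayes, with 15 residual degrees of freedom and 2.92 prior degrees, and contrasts were tested two-sided with Benjamini-Hochberg adjustment over all features. A gene rose or fell at an adjusted p under 0.05, and the study's fold threshold was read as 3.25-fold (1.70 on the log2 scale). Errors after ± are standard errors, intervals are 95% intervals, and fold sizes are powers of the log2 difference. There were 8 comparisons with wild type, 3 between strains of 1 date and 3 interaction terms. The number of arrays limits the precision, and mean intensities of different probe sets were ranked only to mark and filter weak signal. Named genes were the 8 members, the 3 genes of 1 symbol with the highest Pearson correlation to each over the 24 arrays, at most 3 genes of smallest adjusted p per list and comparison, and some of the called genes up to 2 places from a member, the last chosen after their values were seen. Other called neighbours are not named. Members, lists and tests were chosen with earlier results of these data known. Gene order came from RefSeq (ASM294v3), with 2914 probe sets matched by identifier. Alternatives were quantile normalization, the groups of a comparison alone, array weights, the date as a covariate, 1 date only, a replicate block, a filter on dim features, all probe sets, a trended robust prior, an unadjusted p with the fold threshold, each array left out, and, added after seeing the data, the doubted libraries left out with or without the wild-type library with ura4. No pairing of the samples by replicate number was seen. The fitting code was tested on simulated data. Protein and promoter sequences were not analysed here. Tables were made with Python 3.11.15, pandas 2.3.3, numpy 2.4.6 and scipy 1.17.1, and figures with matplotlib 3.10.9.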

Additional observations from a re-analysis of the deposited data

Results flagged for a closer look

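The effect of deleting gcn5 on ght3 differed with and without elp3 once the doubted libraries were left out. The interaction term was -4.58 ± 0.58 (limma adjusted p = 0.000198), and with all arrays it was -2.80 ± 1.95 and did not pass. The Δgcn5 arrays compared were h-, his3-D1 and of the first date. The Δgcn5 Δelp3 arrays were h+, not listed with his3-D1 and of the second date. None of these differences can be told apart from the elp3 deletion.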

How the results depend on the processing

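Over the values of the 8 members, 1856 of 1988 alternatives kept the side of the threshold, 59 lost a call and 72 gained one. Of the 1856, 96 changed sign, all in values that did not pass in either fit. A call was lost with a change of sign in 1, ght7 in Δelp3, at -0.08 after quantile normalization (-0.0836, adjusted p = 0.556). Of 257 alternative counts of changed members, 196 were within 1.5 times the main count and 61 were not. The cause of these changes was not tested.

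Left out one at a time, the arrays gave counts of changed members from 0 to 1 in Δgcn5 (main 0), 1 to 2 in Δelp3 (main 3), 2 to 6 in Δgcn5 Δmst2 (main 5), 0 to 1 in Δgcn5 Δelp3 (main 1), 2 to 3 in Δmst2 Δelp3 (main 3), 3 to 3 in mst1-ts (main 3), and 0 to 1 in Δgcn5 Δelp3 against Δelp3 and against Δmst2 Δelp3 (main 1 each). The triple mutant's own array could not be left out. With array weights the counts were 3 in Δgcn5, 1 in Δmst2, 5 in Δelp3, 4 in Δgcn5 Δelp3, 3 in the triple mutant, 2 in Δgcn5 Δelp3 against Δelp3, 1 in Δmst2 Δelp3 against Δelp3, 3 in Δgcn5 Δelp3 against Δmst2 Δelp3, and 5 and 4 for the interactions of gcn5 with mst2 and with elp3; the weights did not reach their convergence tolerance. Without the doubted libraries they were 2 in Δgcn5, 3 in Δgcn5 Δelp3, 2 in the triple mutant, 2 in Δgcn5 Δelp3 against Δmst2 Δelp3 and 1 for gcn5 with elp3, and with the wild-type library with ura4 also out they were 2, 0, 1, 2 and 1.

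With the date as a covariate the count was 1 in Δelp3, 0 in Δgcn5 Δelp3 and 1 in Δmst2 Δelp3. With arrays of 1 date only it was 0 in Δgcn5 Δmst2, 4 in Δgcn5 Δelp3 against Δelp3 and 4 against Δmst2 Δelp3. Fitting the groups of a comparison alone gave 3 in Δgcn5 Δmst2, 1 in the triple mutant, 2 in Δgcn5 Δelp3 against Δelp3 and 5 against Δmst2 Δelp3. Leaving out dim features gave 0 in mst1-ts and 3 in Δgcn5 Δmst2, because 4 members were not tested. Quantile normalization gave 2 in Δgcn5 Δelp3. An unadjusted p with the fold threshold gave 1 in Δgcn5, 3 in Δgcn5 Δmst2, 0 in Δgcn5 Δelp3, 1 in the triple mutant, and 0 in Δgcn5 Δelp3 against Δelp3 and against Δmst2 Δelp3.

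No pairing of arrays by replicate number was seen, with the doubted libraries included. Deviations of same-numbered arrays correlated at -0.705 to 0.559 (63 pairs, median -0.01) and those of different numbers at -0.508 to 0.601. A replicate block gave 1 changed member in Δelp3, 0 in Δgcn5 Δelp3 and 0 in Δgcn5 Δelp3 against Δelp3, and the 5 calls it took away had adjusted p of 0.0519 to 0.0563. Dim probe sets limit ght3, ght6 and ght7, and a group of 1 or 2 arrays limits Δgcn5 Δelp3 and the triple mutant.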
